A study of Mus musculus with 22 samples.

Results

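The proteasome genes described here were all 43 of the 55487 genes measured whose symbol is Psma, Psmb, Psmc, Psmd or Psme followed by digits only. Of these, 5 encode the immunoproteasome, namely the inducible catalytic subunits Psmb8, Psmb9 and Psmb10 and the activator subunits Psme1 and Psme2. The other 38 were 7 alpha-ring genes, 3 constitutive catalytic and 4 structural beta genes, 6 ATPase genes, 3 further base and 8 lid genes of the regulatory particle, 3 chaperone genes, the activators Psme3 and Psme4, and 2 tissue-restricted genes, Psma8 and Psmb11. The study measured polyadenylated RNA in primary monocytes from the spleens of wild-type male C57BL/6 mice and in macrophages derived from such monocytes in culture. All cells were cultured and then given either vehicle or ox-LDL at 50 µg/mL for 24 hours. This is oxidised low-density lipoprotein, a modified particle that turns myeloid cells into lipid-filled foam cells. The macrophages had in addition received phorbol myristate acetate (PMA), a protein kinase C activator, at 200 ng/mL over 5 days, which the monocytes had not, so cell type, PMA and time in culture cannot be told apart. There were 6 libraries of monocytes with vehicle (replicates 1 to 6), 5 of monocytes with ox-LDL (7 to 11), 5 of macrophages with vehicle (A to E) and 6 of macrophages with ox-LDL (G to L).

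The proteasome degrades proteins that carry ubiquitin. Its 20S core is a barrel of outer alpha rings and inner beta rings, and the catalytic sites lie on the beta subunits encoded by Psmb5 (chymotrypsin-like), Psmb6 (caspase-like) and Psmb7 (trypsin-like). The 19S regulatory particle, built of ATPases, other base subunits and a lid, recognises ubiquitin and unfolds the substrate. In haematopoietic cells, and in most cells after interferon, Psmb8, Psmb9 and Psmb10 take the places of Psmb5, Psmb6 and Psmb7, and the PA28 activator of Psme1 and Psme2 can cap the core. The resulting immunoproteasome is best known for making peptides for presentation on MHC class I.

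Immunoproteasome genes lie in pairs in the mouse genome. On GRCm38, Psmb8 (ENSMUSG00000024338; chromosome 17, 34197721 to 34201454, plus strand) and Psmb9 (ENSMUSG00000096727; chromosome 17, 34181987 to 34187764, minus strand) lie 9956 bases apart in the MHC region. Psme1 (ENSMUSG00000022216; chromosome 14, 55578123 to 55581529, plus strand) and Psme2 (ENSMUSG00000079197; chromosome 14, 55587441 to 55591113, minus strand) lie 5911 bases apart. Psmb10 (ENSMUSG00000031897; chromosome 8, 105935735 to 105938444, minus strand) stands alone. Their constitutive counterparts are Psmb5 (ENSMUSG00000022193; chromosome 14, 54614119 to 54618022, minus strand), Psmb6 (ENSMUSG00000018286; chromosome 11, 70525367 to 70527858, plus strand) and Psmb7 (ENSMUSG00000026750; chromosome 2, 38588036 to 38644087, minus strand). All 8 are protein-coding. Psmb9 overlaps the peptide transporter gene Tap1 on the opposite strand, and Psmb7 overlaps Nek6 likewise. Whether the counting used strand is not given in the sources used here, so reads from the shared stretches cannot be assigned.

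Promoter windows of RefSeq (GRCm38.p6; 250 bases before and 50 after a start site) existed for 36 of the 43 genes, all 5 immunoproteasome genes included. They were searched on both strands for the core of the antioxidant response element (TGACNNNGC), bound by NRF-family factors that control constitutive proteasome genes, and for a core of the interferon-stimulated response element (GAAANNGAA). The antioxidant core was in 0 of the 5 immunoproteasome windows and in 6 of the 31 others (19.4%: Psmb5, Psmb6, Psmc6, Psmd9, Psmd12 and Psme4), against 13.99% of all 27025 genes with a window. The interferon-stimulated core was in 1 of 5 (Psme1) and 5 of 31, against 9.761% of all genes. These are matches of letters only, and a window without them says nothing of the factor. The exon-free bases before the start sites of Psmb5 and Psmb6, among the 6 with the antioxidant core, are shown with that core in capitals. Those of Psme2, the immunoproteasome gene with the largest difference between the cell types, are shown beside them. The Psme1 window, which holds the interferon-stimulated core, is not shown. The stretches shown are picked examples and do not stand for the constitutive or the inducible kind. Each is from RefSeq, written 5′ to 3′ on the transcribed strand, and the Psme2 stretch holds neither core.
Psmb5, chr14:54618023-54618245, minus strand: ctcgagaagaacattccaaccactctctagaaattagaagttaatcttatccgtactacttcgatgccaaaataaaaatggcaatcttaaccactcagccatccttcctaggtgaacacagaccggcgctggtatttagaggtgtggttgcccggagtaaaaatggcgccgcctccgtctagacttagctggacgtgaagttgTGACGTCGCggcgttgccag
Psmb6, chr11:70525107-70525356, plus strand: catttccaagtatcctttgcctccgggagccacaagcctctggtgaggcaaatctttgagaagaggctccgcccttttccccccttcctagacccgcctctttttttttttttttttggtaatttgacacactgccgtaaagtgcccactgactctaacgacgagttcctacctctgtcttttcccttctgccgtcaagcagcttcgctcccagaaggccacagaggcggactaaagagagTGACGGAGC
Psme2, chr14:55591114-55591351, minus strand: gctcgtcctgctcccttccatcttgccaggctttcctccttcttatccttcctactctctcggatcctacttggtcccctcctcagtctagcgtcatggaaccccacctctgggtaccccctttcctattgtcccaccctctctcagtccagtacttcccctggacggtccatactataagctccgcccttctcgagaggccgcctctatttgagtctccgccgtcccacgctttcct

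Library totals ran from 37330389 to 50257111 counts. Levels below are CPM, counts divided by the library total and scaled with TMM factors, and levels of different genes are compared as CPM per kilobase of the deposited gene length. The monocyte libraries carried RNA that their label does not name. Dendritic cell markers (11 genes) summed to 7343 to 12979 CPM in monocytes and 68.7 to 249 in macrophages, most of it from Ccr7, at 5125 to 8311 against 0.0235 to 4.54 CPM, and Fscn1. Itgax, on the same list, was higher in macrophages (102.8 to 229 CPM with vehicle, 66.7 to 193 with ox-LDL) than in monocytes (41.9 to 61.7 and 30.7 to 47.4), and the subset markers Clec9a, Xcr1 and Siglech reached at most 1.16 CPM in any library. Neutrophil markers (12 genes) summed to 4858 to 44455 CPM in monocytes and 131 to 335 in macrophages, with replicates 5, 6, 10 and 11 at 29448 to 44455 and the other 7 monocyte libraries at 4858 to 5924. These neutrophil-rich libraries also had the lowest dendritic cell sums among monocytes, 7343 to 8556 CPM against 9963 to 12979 in the other 7. The part of either marker set in their proteasome levels was not tested. B-cell markers (8 genes) summed to 219 to 867 against 1.49 to 6.22 CPM, and erythroid markers (7 genes) to 439 to 14412 against 0.443 to 2.77 CPM, and the B-cell marker Pax5 was at 0 in every macrophage library. The 8 monocyte markers summed to 761 to 1987 CPM in monocytes and 2599 to 6287 in macrophages, led by Csf1r, while the classical monocyte marker Ly6c2 stood at 19.5 to 284 against 0.297 to 2.44 CPM. The 11 macrophage markers summed to 9591 to 18274 and 55363 to 77556 CPM. Platelet markers (3 genes) had median sums of 46.4 CPM in vehicle and 48.8 in ox-LDL monocytes, against 140 and 99.1 in macrophages. Plasma cell markers (3 genes) had median sums of 34.9 and 52.9 CPM in monocytes, against 125 and 101 in macrophages.

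The comparison of macrophages with monocytes under vehicle asked how the proteasome genes differ between the cell types without lipid loading. All 5 immunoproteasome genes were lower in macrophages, by 2.78- to 10.8-fold, and their groups did not overlap. The constitutive 20S genes were lower too, all 14 of them, by far less, with a median log2 fold change of -0.73. Most non-ATPase genes of the 19S particle were not called, and Psme4, Psmd5 and Psma8 were higher. Of the 42 genes that passed the filter on low counts, 33 were called (adjusted p under 0.05, edgeR's quasi-likelihood test), 3 higher and 30 lower, where 63.7% of all 16288 genes tested were called, 28.5% higher and 35.1% lower. The groups did not overlap for 3 genes that were higher (22.8% of all genes tested) and 22 that were lower (26.2%). The median over all genes tested was -0.09. In bulk RNA, fewer cells of a type and less RNA per cell cannot be told apart, and the part of the marker genes above in these differences was not tested.

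Among the inducible catalytic subunits, Psmb8 ranked second of the 43 genes per kilobase in vehicle monocytes and 33rd in vehicle macrophages. Its lowest, median and highest levels in vehicle monocytes were 504, 676 and 769 CPM. In macrophages A to E it stood at 79.1, 66.5, 56.5, 65.4 and 74.2 CPM. Every macrophage library was far below every monocyte library, and the lowest monocyte levels were those of replicates 5 and 6, which were rich in neutrophil markers. The log2 fold change was -3.29 ± 0.14 (SE; edgeR adjusted p = 3.49e-10). Psmb9, whose product takes the place of that of Psmb6, ranged over 321, 402 and 460 CPM (lowest, median, highest) in vehicle monocytes. It stood at 49.5, 40.5, 35.6, 43.4 and 46.5 CPM in macrophages A to E. Again no libraries overlapped, and the log2 fold change was -3.25 ± 0.13 (adjusted p = 1.67e-10). Psmb10, whose product occupies the trypsin-like site, fell less, from 181, 222 and 243 CPM (lowest, median, highest) to 97.9, 74.3, 64.8, 71.7 and 87.8 CPM in A to E. Its groups were separate as well, with a log2 fold change of -1.48 ± 0.13 (adjusted p = 2.29e-07).

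The activator subunits divided. Psme2 was the highest of all 43 genes per kilobase in vehicle monocytes, at 528 ± 80.6 CPM per kilobase (SD, n = 6), and ranked 9th in vehicle macrophages. Its lowest, median and highest levels were 663, 972 and 1046 CPM in vehicle monocytes, against 119, 89.6, 72.1, 72.6 and 86.0 CPM in macrophages A to E. The libraries did not overlap, and its log2 fold change of -3.43 ± 0.17 (adjusted p = 1.34e-09) was the largest fall among the 42 genes. Reads of Psme2 may be shared with its near copy Psme2b, which stood at 104 ± 12.2 CPM in vehicle monocytes (SD, n = 6) and 12.7 ± 1.71 in vehicle macrophages (n = 5). Psme1, the partner of Psme2 in PA28, went from 240, 299 and 408 CPM (lowest, median, highest) to 86.8, 61.9, 60.4, 63.5 and 65.4 CPM, without overlap, a log2 fold change of -2.25 ± 0.16 (adjusted p = 3.77e-08). Psme3 encodes the nuclear activator PA28γ, which needs no ubiquitin. Its vehicle monocytes held 129, 143 and 149 CPM (lowest, median, highest) and its macrophages 117, 130, 121, 123 and 129 CPM. The groups overlapped at their edges, and the log2 fold change of -0.22 ± 0.08 was called (adjusted p = 0.0299) but lost its call without vehicle monocyte replicate 3 or without any single macrophage library (adjusted p 0.0506 to 0.158), with no filter on low counts (0.360) and with one fit over all 4 groups (0.0551). Psme4 encodes PA200, an activator linked to histone degradation. It was higher in macrophages, at 63.3, 74.1, 66.7, 62.3 and 64.9 CPM in A to E against 27.8, 34.7 and 44.8 in monocytes (lowest, median, highest). Each macrophage library exceeded each monocyte library, with a log2 fold change of 0.89 ± 0.13 (adjusted p = 3.86e-05).

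**Figure D1:**
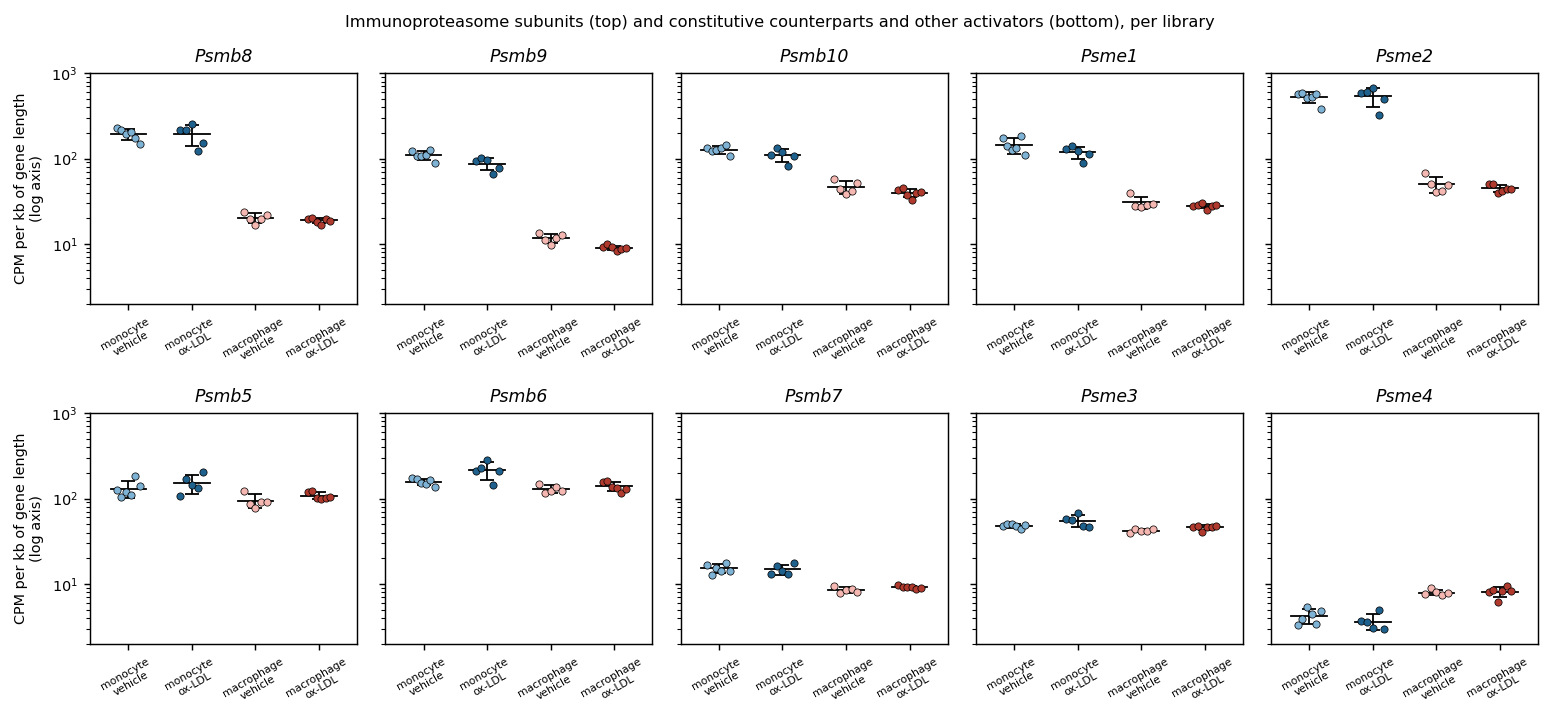
Levels of the 5 immunoproteasome genes (top row) and of their constitutive catalytic counterparts and the other activators (bottom row), as CPM per kilobase of gene length on a log axis. Points are libraries, horizontal lines are group means and bars are 1 SD (n = 6, 5, 5 and 6 from left to right); the top row drops between the monocyte and macrophage groups, Psmb5 and Psmb6 drop little, and Psme4 goes up.

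The constitutive catalytic subunits kept more of their level. Psmb5 held 93.6, 111 and 165 CPM (lowest, median, highest) in vehicle monocytes and 111, 76.6, 69.9, 82.4 and 82.6 CPM in macrophages A to E. Only macrophage A lay within the monocyte range, and the log2 fold change was -0.49 ± 0.16 (adjusted p = 0.0146; 0.0867 without macrophage C, 0.0535 with no filter on low counts). Psmb6 held 258, 295 and 327 CPM in monocytes and 278, 217, 230, 257 and 227 in macrophages. Its groups overlapped through macrophage A, the log2 fold change was -0.30 ± 0.10 (adjusted p = 0.0178), and the call was lost without macrophage B, C or E (adjusted p 0.0626, 0.0956 and 0.0534), with no filter on low counts (0.189) and with one fit over all 4 groups (0.0586). Psmb7 held 43.8, 50.6 and 60.6 CPM in monocytes and 32.1, 26.8, 29.3, 29.5 and 27.5 in macrophages. Its groups did not overlap, and its log2 fold change was -0.86 ± 0.10 (adjusted p = 7.49e-06).

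Of the 7 alpha-ring genes, which form the gate of the core, all 7 fell, with a median of -0.77. The largest fall was that of Psma3, at 177 ± 23.0 CPM in monocytes (SD, n = 6) and 80.8 ± 12.1 in macrophages (n = 5), or -1.15 ± 0.13 on the log2 scale. Psma7 followed, at 255 ± 29.2 and 118 ± 21.5 CPM, or -1.13 ± 0.13. The 4 structural beta genes fell with a median of -0.53, Psmb3 the most, from 197 ± 28.6 to 103 ± 13.4 CPM (-0.95 ± 0.12). Psma8, the alpha subunit of the testis proteasome, was near the limit of detection. It held 0.309, 0.592 and 0.829 CPM (lowest, median, highest) in vehicle monocytes and 1.34, 2.01, 1.12, 1.73 and 1.39 CPM in macrophages, without overlap (log2 fold change 1.33 ± 0.29, adjusted p = 0.00122). Psmb11, the thymus-specific catalytic subunit, had 25 counts over all 22 libraries, 12 of them in vehicle monocyte replicate 2, and was the 1 gene that failed the filter.

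Among the ATPases of the 19S particle, which unfold the substrate, all 6 Psmc genes had negative fold changes and 5 were called, with a median of -0.47. Among the 19S genes Psmc6 and Psmc3 had the smallest called falls, with log2 fold changes of -0.24 ± 0.09 and -0.28 ± 0.10. The Psmc3 call was lost without vehicle monocyte replicate 5 or macrophage B or C (adjusted p 0.0546, 0.0721 and 0.123) and with no filter on low counts (0.225). The Psmc6 call was lost without vehicle monocyte replicate 3 or 5 or any single macrophage library (adjusted p 0.0587 to 0.174), with no filter on low counts (0.309) and with one fit over all 4 groups (0.0702). Of the 14 non-ATPase genes, the 3 chaperone genes included, 5 fell, 1 rose and 8 were not called, with a median of -0.09. Those not called were Psmd1, Psmd2, Psmd3, Psmd6, Psmd8, Psmd9, Psmd12 and Psmd13, with fold changes from -0.21 to 0.23 on the log2 scale. The falls were led by Psmd10, the chaperone gankyrin, from 54.7 ± 5.98 to 26.3 ± 3.25 CPM (-1.08 ± 0.11; adjusted p = 1.76e-06). The rise was that of Psmd5, an assembly chaperone of the base, which held 50.4, 55.0 and 62.7 CPM in monocytes and 86.4, 73.6, 65.4, 70.7 and 70.9 in macrophages, without overlap (0.38 ± 0.10; adjusted p = 0.0036).

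Under ox-LDL the same comparison, which shares no library with that under vehicle, called 35 of the 42 genes, 3 higher and 32 lower, where 65.4% of all 15825 genes tested were called, 30.3% higher and 35.0% lower. The groups did not overlap for 2 genes that were higher (23.9% of all genes tested) and 27 that were lower (25.4%). The median over all genes tested was -0.07. All 5 immunoproteasome genes were lower again. Psmb8 stood at 735, 740, 856, 418 and 509 CPM in monocytes 7 to 11, against 56.7, 64.6 and 67.8 (lowest, median, highest) in macrophages, a log2 fold change of -3.39 ± 0.17. Psmb9 stood at 341, 369, 356, 243 and 287 CPM against 30.6, 33.1 and 36.3, a log2 fold change of -3.30 ± 0.12. None of these libraries overlapped, and the 2 lowest monocyte levels of either gene were those of the neutrophil-rich replicates 10 and 11. Psmb10 stood at 186, 227, 206, 140 and 185 CPM against 55.5, 67.6 and 76.5 (-1.52 ± 0.12). Psme1 stood at 283, 310, 273, 194 and 249 CPM against 55.8, 61.8 and 66.6 (-2.12 ± 0.11). Psme2 stood at 1042, 1072, 1180, 565 and 876 CPM against 70.3, 78.0 and 89.1 (-3.60 ± 0.17). Each of the 5 had an edgeR adjusted p of at most 1.99e-07, with groups that did not overlap.

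The constitutive genes also kept to smaller differences under ox-LDL. All 14 constitutive 20S genes fell, with a median of -0.76, led by Psma7 (-1.33 ± 0.11), Psma3 (-1.28 ± 0.12) and Psmb3 (-1.21 ± 0.12). All 6 ATPase genes fell, with a median of -0.71 and with Psmc6 the least, at -0.43 ± 0.12. Of the 14 non-ATPase 19S genes, 6 fell, among them Psmd10 (-1.23 ± 0.12) and the lid gene Psmd12 (-0.44 ± 0.12), 1 rose and 7 were not called. The rise was that of Psmd8, a lid subunit, from 274, 282, 272, 199 and 273 CPM in monocytes 7 to 11 to 273, 318 and 376 CPM (lowest, median, highest) in macrophages. Its groups overlapped, and the log2 fold change of 0.28 ± 0.12 (adjusted p = 0.0464) lost its call in 14 of 18 alternatives, with adjusted p-values up to 0.186, including those without monocyte 7, 9, 10 or 11 or macrophage G, H, I, J or L. Among the catalytic counterparts, Psmb5 stood at 96.8, 150, 128, 120 and 185 CPM in monocytes against 89.5, 92.2 and 110 in macrophages (-0.52 ± 0.14), Psmb6 at 397, 422, 527, 266 and 399 against 219, 252 and 301 (-0.67 ± 0.15) and Psmb7 at 45.1, 55.6, 48.0, 44.2 and 60.0 against 29.9, 31.2 and 33.6 (-0.72 ± 0.10). Only the Psmb7 groups were separate. Psme3 had a log2 fold change of -0.30 ± 0.11 with overlapping groups (adjusted p = 0.0229; 0.0734 with no filter on low counts). Psme4, at 30.8, 29.7, 25.4, 41.0 and 25.0 CPM in monocytes against 51.7, 69.4 and 80.0 in macrophages, and Psma8 rose by 1.13 ± 0.15 and 1.38 ± 0.33 without overlap.

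**Figure D2:**
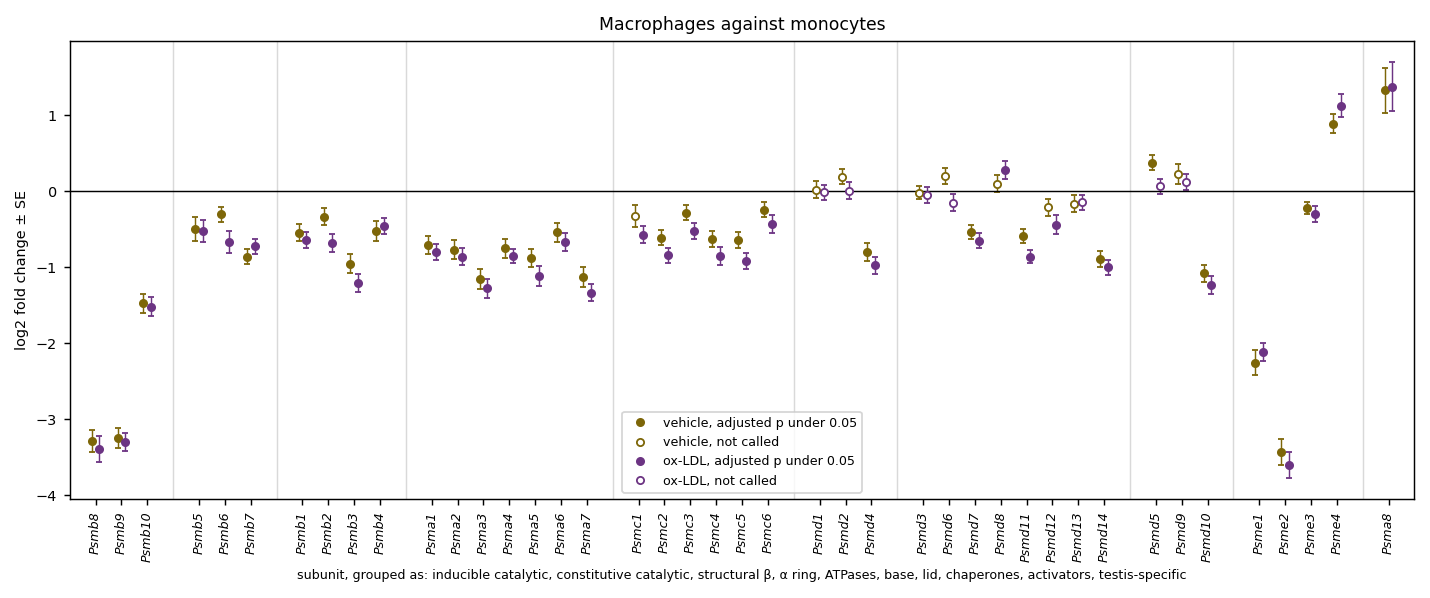
Log2 fold change of macrophages against monocytes (± SE) for the 42 genes tested, under vehicle and under ox-LDL, grouped by role. Filled points had an adjusted p under 0.05; Psmb8, Psmb9, Psme1 and Psme2 lie below -2, the constitutive 20S genes lie between -1.33 and -0.30, and 8 of the 14 non-ATPase 19S genes were not called under vehicle.

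Summed over genes, the 36 constitutive genes without Psma8 and Psmb11 held 5072 ± 385 CPM in vehicle monocytes (SD, n = 6), 5872 ± 772 in ox-LDL monocytes (n = 5), 3923 ± 282 in vehicle macrophages (n = 5) and 4156 ± 89.3 in ox-LDL macrophages (n = 6). The 5 immunoproteasome genes held 2528 ± 334, 2368 ± 535, 346 ± 54.4 and 306 ± 21.0 CPM in the same order. Their share of both sums was 29.3 to 35.2% in the monocytes with vehicle and 25.4 to 31.2% in those with ox-LDL. In the macrophages it was 7.24 to 8.92% and 6.25 to 7.21%. The 2 cell types were far apart, and within macrophages no ox-LDL library exceeded the lowest vehicle library, that of replicate C at 7.24%. Within monocytes the treatment groups overlapped. Split by neutrophil markers after the data were seen, they did not overlap within either set of libraries. Sets this small can separate by chance, and this was not tested. The share was 33.2 to 35.2% in vehicle replicates 1 to 4 and 30.1 to 31.2% in ox-LDL replicates 7 to 9. In the neutrophil-rich libraries it was 29.3 and 33.1% in vehicle replicates 6 and 5, and 25.4 and 25.6% in ox-LDL replicates 10 and 11. In the 4 neutrophil-rich monocyte libraries the immunoproteasome sum was 1560 to 2720 CPM, against 2448 to 2871 in the other 7. The highest vehicle monocyte levels of Psmb9, Psmb10 and Psme1 (460, 243 and 408 CPM) were in neutrophil-rich libraries. Those of Psmb8 and Psme2 (769 and 1046 CPM) were not.

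**Figure D3:**
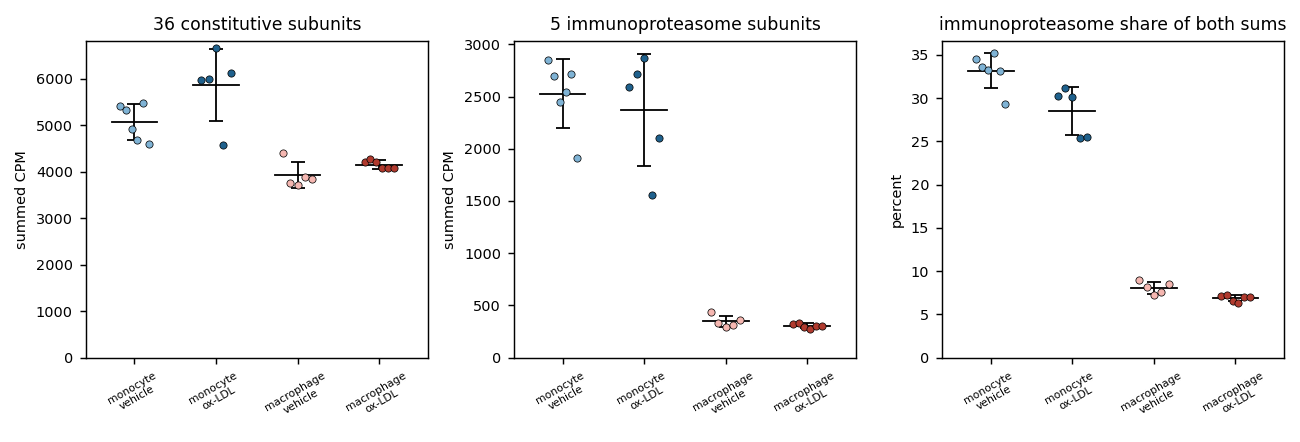
Summed CPM of the 36 constitutive genes and of the 5 immunoproteasome genes, and the immunoproteasome share of both sums in percent, by library. Points are libraries, lines are means and bars are 1 SD; the share lies between 25.4 and 35.2% in monocytes and between 6.25 and 8.92% in macrophages.

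Each inducible catalytic subunit was next set against the constitutive subunit it replaces, as a ratio of CPM per kilobase within each library, which does not depend on how libraries are scaled. These 12 comparisons of ratios were tested with exact 2-sided permutation tests over libraries, for which 0.00433 is the smallest p that 6 against 5 libraries can give, and p-values were adjusted over the 12. A ratio of RNA levels does not measure assembled particles, and its absolute value depends on the gene lengths deposited.

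Between cell types all 3 ratios were lower in macrophages, with separate groups and an exact permutation p = 0.00433 (adjusted p = 0.00649) under vehicle and under ox-LDL. For Psmb8 to Psmb5 the ratio in vehicle monocytes had a lowest value of 0.946, a median of 1.70 and a highest value of 2.10. In macrophages A to E it was 0.189, 0.231, 0.215, 0.211 and 0.239, lower by 2.80 ± 0.20 on the log2 scale (SE). The inducible transcript thus outnumbered the constitutive one per kilobase in 5 of the 6 vehicle monocyte libraries and in 0 of the 5 vehicle macrophage libraries. For Psmb9 to Psmb6 the ratio went from 0.637, 0.705 and 0.763 (lowest, median, highest) to 0.0910, 0.0955, 0.0791, 0.0865 and 0.105, lower by 2.94 ± 0.08. For Psmb10 to Psmb7 the inducible transcript remained the higher in every library. That ratio went from 7.40, 8.18 and 9.49 to 6.11, 5.57, 4.44, 4.88 and 6.41, lower by 0.63 ± 0.11. Under ox-LDL the log2 differences between the cell types were -2.85 ± 0.28, -2.64 ± 0.10 and -0.79 ± 0.12 in the same order.

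With ox-LDL against vehicle, 1 of the 3 ratios passed the test in monocytes and 3 of 3 in macrophages. A ratio can fall through either of its genes. For Psmb9 and Psmb6 the log2 fold changes of the single genes were -0.32 and 0.47 in monocytes, neither called. In macrophages they were -0.38 (called) and 0.10. For Psmb8 and Psmb5 in macrophages they were -0.10 and 0.20, and for Psmb10 and Psmb7 -0.23 and 0.11, none called. For Psmb9 to Psmb6 the ratio was 0.439, 0.447, 0.346, 0.467 and 0.369 in monocytes 7 to 11, all below the lowest vehicle monocyte library at 0.637. The log2 difference was -0.77 ± 0.10 (exact permutation p = 0.00433, adjusted p = 0.00649). Without the 4 neutrophil-rich monocyte libraries the difference was -0.78, in 3 libraries against 4. There the adjusted p was 0.0686, and an exact permutation test of so few libraries cannot give a p under 0.05. In macrophages the ratio was 0.0592, 0.0653 and 0.0746 (lowest, median, highest) with ox-LDL, all below the lowest vehicle library, C at 0.0791. That difference was -0.47 ± 0.08 (exact permutation p = 0.00433, adjusted p = 0.00649). Psmb9 to Psmb6 was thus the pair whose treatment groups were separate in both cell types. Whether the size of the difference was unequal between the cell types was not tested.

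For Psmb8 to Psmb5, ox-LDL macrophages held ratios of 0.164, 0.174 and 0.195 (lowest, median, highest), against 0.189 to 0.239 in vehicle macrophages. The groups touched at vehicle replicate A, and the log2 difference was -0.31 ± 0.07 (exact permutation p = 0.00866, adjusted p = 0.0115). In monocytes the ratio was 2.02, 1.31, 1.78, 0.924 and 0.731 with ox-LDL and 0.946 to 2.10 with vehicle, a log2 difference of -0.26 ± 0.34 (exact permutation p = 0.442, adjusted p = 0.442). The lowest value in either monocyte group came from a neutrophil-rich library, 5 under vehicle and 11 under ox-LDL. For Psmb10 to Psmb7, ox-LDL macrophages held 3.57, 4.42 and 4.93 (lowest, median, highest) against 4.44 to 6.41 with vehicle, a log2 difference of -0.34 ± 0.12 (exact permutation p = 0.0303, adjusted p = 0.0364). The groups overlapped, and the adjusted p was 0.08 without macrophage A, B or E and 0.0667 without G, I or J. In monocytes that ratio was 8.28, 8.18, 8.61, 6.35 and 6.20 with ox-LDL and 7.40 to 9.49 with vehicle (log2 difference -0.18 ± 0.12, exact permutation p = 0.186, adjusted p = 0.203).

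**Figure D4:**
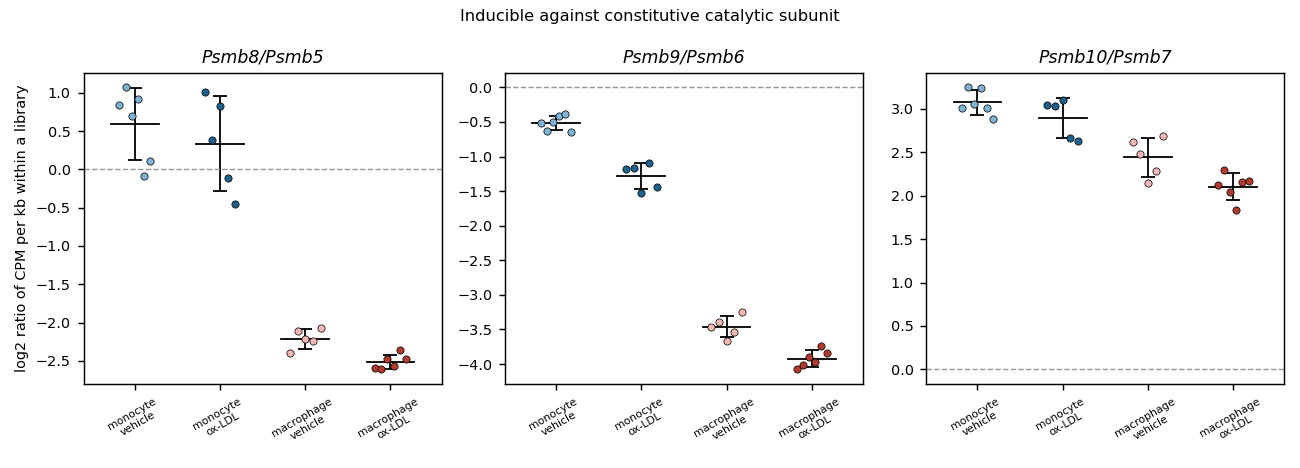
Log2 ratio of each inducible catalytic subunit to its constitutive counterpart within each library (CPM per kilobase), by group. Points are libraries, lines are means, bars are 1 SD and the dashed line marks equal levels; macrophages lie below monocytes for all 3 pairs, and for Psmb9 to Psmb6 the ox-LDL libraries lie below the vehicle libraries in both cell types.

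Gene by gene, macrophages given ox-LDL were compared with those given vehicle, to ask how lipid loading affects each proteasome gene. Psmb9 was the 1 gene of 42 that was called, and it was lower, where 2.35% of all 14543 genes tested were called and 1.38% were called lower. It stood at 49.5, 40.5, 35.6, 43.4 and 46.5 CPM in macrophages A to E and at 30.6, 33.1 and 36.3 CPM (lowest, median, highest) with ox-LDL. The groups overlapped only in that ox-LDL replicate H exceeded vehicle replicate C, and no gene had groups that did not overlap (3.38% of all genes tested). The log2 fold change was -0.38 ± 0.08 (SE; edgeR adjusted p = 0.0271). Leaving out single libraries ended the call for 6 of them, with adjusted p-values of 0.0525, 0.0562, 0.0594 and 0.0851 without A, B, D and E, and of 0.0528 and 0.0601 without K and L. With a spread estimated over all 4 groups the adjusted p was 0.219.

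The other 4 immunoproteasome genes also had negative fold changes in macrophages, none called. They were -0.10 ± 0.08 for Psmb8, -0.23 ± 0.11 for Psmb10, -0.13 ± 0.09 for Psme1 and -0.14 ± 0.12 for Psme2. With the 3 sets of macrophage libraries as a covariate, Psmb10 was called lower (-0.28 ± 0.08, adjusted p = 0.0448) and Psmd8 higher (0.31 ± 0.07, adjusted p = 0.0128). That fit called 278 of all genes tested higher and 490 lower, against 142 and 200 without the covariate. Of the 37 other genes tested, 28 had fold changes above 0, against 50.1% of all genes tested, with a median of 0.04. Signs of genes read from the same libraries are not separate observations. Psmb5, Psmb6 and Psmb7 stood at 0.20 ± 0.11, 0.10 ± 0.09 and 0.11 ± 0.06, Psme3 at 0.12 ± 0.06 and Psme4 at 0.04 ± 0.09 on the log2 scale. The highest were Psmd8, at 0.31 ± 0.10 (adjusted p = 0.144), Psma8, at 0.30 ± 0.21 (adjusted p = 0.568), and Psmd1, the scaffold of the base, at 0.24 ± 0.06 (adjusted p = 0.0657), all named after their values were seen. Psmd1 held 185, 167, 161, 154 and 163 CPM in A to E and 182, 195 and 214 (lowest, median, highest) with ox-LDL, where only vehicle replicate A reached the ox-LDL range. It was called without vehicle replicate A (0.28 ± 0.06, adjusted p = 0.0325). An unadjusted p under 0.05 was reached by 8 of the 42 genes, against 14.2% of all genes tested. That count was 11 without A, 6 without B, D, E, G, I or J, 5 without C, H or K and 4 without L. It was 4 with scaling by total counts, 5 with no filter on low counts and 3 with one fit over all 4 groups. The 14.2% belongs to the count of 8, and the other counts have no share over all genes beside them.

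In monocytes, ox-LDL against vehicle gave no called proteasome gene, where 0.0241% of all 16575 genes tested were called. DESeq2 and limma-voom also called 0 proteasome genes. Over all genes, DESeq2 called 94 higher and 67 lower, and limma-voom 6 higher and 1 lower. An unadjusted p under 0.05 was reached by 14 of 42, against 10.4% of all genes tested. That count was 7 without vehicle replicate 4 or 6 or ox-LDL replicate 7 or 9, 8 without vehicle replicate 3, 9 without ox-LDL replicate 11 and 22 without ox-LDL replicate 10. It was 5 with scaling by total counts, 7 with no filter on low counts and 22 without the 4 neutrophil-rich libraries. It was 16 without vehicle replicate 5, 17 with the neutrophil-rich set as a covariate and 20 with one fit over all 4 groups. The 10.4% belongs to the count of 14, and no share over all genes is given for these other counts. No gene had groups that did not overlap (1.39% of all genes tested). Fold changes above 0 were found for 37 of the 42 genes, against 49.8% of all genes tested. All the genes were read from the same libraries, so their signs are not separate observations. Fold changes above 0 included all 17 genes of the 19S particle and the 3 chaperone genes, these 20 with a median of 0.27. They also included 13 of the 14 constitutive 20S genes, with a median of 0.16. The highest were Psmb6, at 0.47 ± 0.15 (adjusted p = 0.302), and Psmd5, at 0.38 ± 0.12 (adjusted p = 0.315). Psmb6 ranged over 258, 295 and 327 CPM with vehicle and stood at 397, 422, 527, 266 and 399 CPM in 7 to 11, where replicate 10 alone lay within the vehicle range. The lowest were Psmb9, at -0.32 ± 0.14 (adjusted p = 0.445), and Psme1, at -0.26 ± 0.16 (adjusted p = 0.634). Psmb9 ranged over 321, 402 and 460 CPM with vehicle and stood at 341, 369, 356, 243 and 287 with ox-LDL, overlapping through vehicle replicate 6. Both of its lowest ox-LDL levels were in neutrophil-rich libraries, and so were both its lowest and its highest vehicle level, 321 and 460 CPM. The remaining named genes were Psmb8 at 0.01 ± 0.18, Psmb10 at -0.18 ± 0.13, Psme2 at 0.05 ± 0.18, Psmb5 at 0.24 ± 0.20, Psmb7 at -0.01 ± 0.13, Psme3 at 0.22 ± 0.11 and Psme4 at -0.18 ± 0.17 on the log2 scale.

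**Figure D5:**
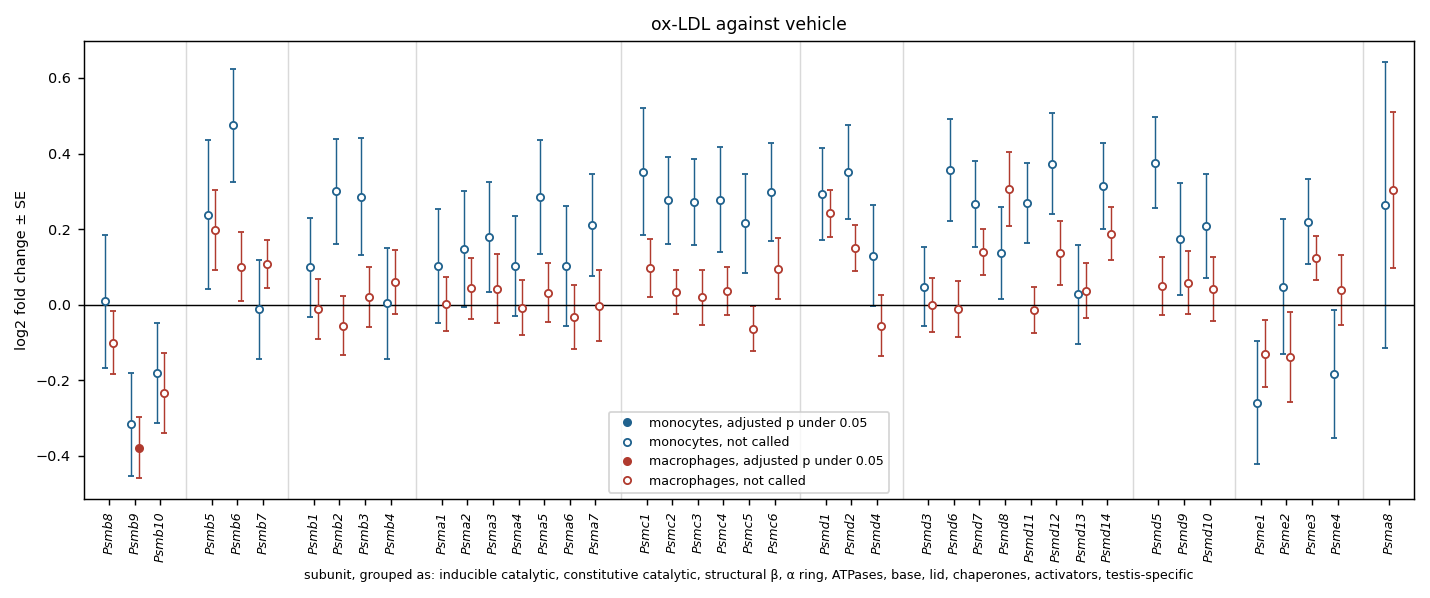
Log2 fold change of ox-LDL against vehicle (± SE) for the 42 genes tested in monocytes and in macrophages, grouped by role. Filled points had an adjusted p under 0.05, which Psmb9 in macrophages reached at -0.38; the 17 genes of the 19S particle and the 3 chaperone genes lie above 0 in monocytes.

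The difference of the ox-LDL effects between the cell types was tested as an interaction over all 4 groups. No proteasome gene was called with edgeR, where 0.063% of all 17466 genes tested were called, and DESeq2 and limma-voom also called 0. Over all genes, DESeq2 called 16 higher and 44 lower, and limma-voom 0 higher and 8 lower. An unadjusted p under 0.05 was reached by 3 of 42 genes (Psmd5, Psmd6 and Psmd11), against 7.22% of all genes tested. That count was 0 without vehicle monocyte replicate 4, ox-LDL monocyte replicate 9 or macrophage A, 1 without macrophage I, 5 without vehicle monocyte replicate 5, 12 without ox-LDL monocyte replicate 10 and 14 without the 4 neutrophil-rich libraries. The 7.22% belongs to the count of 3, and the other counts have no share over all genes beside them. The lowest differences (macrophage minus monocyte) were those of Psmb6 (log2 difference -0.35 ± 0.18, adjusted p = 0.736) and of the lid gene Psmd6 (-0.35 ± 0.15, adjusted p = 0.643). The highest were those of Psme4, at 0.25 ± 0.20 (adjusted p = 0.852), and Psmd8, at 0.19 ± 0.16 (adjusted p = 0.862). For Psmb9 the difference was -0.04 ± 0.16.

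Genes that work beside the proteasome were taken from 2 lists. The first held 26 measured genes of assembly, regulation and ubiquitin supply. Between cell types 6 were higher and 13 lower in macrophages, under vehicle and under ox-LDL, with medians of -0.26 and -0.30. These 19 of 26 stand beside 63.7% and 65.4% called among all genes tested. Under vehicle the largest differences were those of Ubb, a polyubiquitin gene, from 2104 ± 406 CPM (SD, n = 6) to 825 ± 77.8 (n = 5), of Pomp, the maturation factor of the core, from 174 ± 30.5 to 87.0 ± 11.6 CPM, and of Psmg3, a core assembly chaperone, from 10.9 ± 1.77 to 5.68 ± 0.925 CPM. Their log2 fold changes were -1.37 ± 0.14, -1.02 ± 0.13 and -0.96 ± 0.16. With ox-LDL against vehicle 0 of the 26 were called in either cell type, and medians were 0.15 in monocytes and 0.03 in macrophages. Among all genes tested 0.0241% were called in monocytes and 2.35% in macrophages.

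The second list held 18 genes of peptide transport, MHC class I and interferon signalling, through which immunoproteasome genes are induced. Between cell types under vehicle 2 were higher and 12 lower in macrophages, and under ox-LDL 2 and 13, with medians of -0.79 and -0.93. Among all genes tested 35.1% and 35.0% were called lower, and 28.5% and 30.3% higher. Jak2, a kinase of the interferon-gamma receptor, fell from 406 ± 110 to 39.9 ± 3.30 CPM (-3.37 ± 0.19), Tap1, which overlaps Psmb9, from 463 ± 82.6 to 52.0 ± 5.55 CPM (-3.17 ± 0.15), and Nlrc5, the activator of MHC class I genes, from 126 ± 37.9 to 16.4 ± 3.98 CPM (-2.96 ± 0.24) under vehicle. With ox-LDL in macrophages 4 of the 18 were lower and 0 higher, where 1.38% of all genes tested were called lower and 2.35% either way. The largest were Stat2, from 52.2 ± 7.01 (n = 5) to 37.2 ± 4.90 CPM (n = 6), and Irf9, from 59.5 ± 4.89 to 42.5 ± 3.34 CPM, both parts of the type I interferon transcription complex, and Tap1, from 52.0 ± 5.55 to 40.4 ± 4.10 CPM. Their log2 fold changes were -0.49 ± 0.11, -0.49 ± 0.07 and -0.37 ± 0.09 (adjusted p 0.0288, 0.00307 and 0.0415). In monocytes 0 of the 18 were called, where 0.0241% of all genes tested were called.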

How the data were processed

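RNA was sequenced from 22 libraries of splenic monocytes and PMA-derived macrophages, prepared with Takara's SMARTer kit for small inputs, per the labels' protocols. The authors aligned reads with STAR 2.7.9a to GRCm38 and counted them with featureCounts 2.0.3 from Subread, per the submitters' processing notes. Not given in the sources used here are the strand setting, the annotation release and how multiply mapped reads were handled. The authors' counts are whole reads. Their deposited CPM divide these by the library total, their deposited FPKM divide CPM by gene length, and their deposited TPM rescale FPKM to 1 total. In a check of all genes and libraries 0 values departed from this. There were 0 columns of unknown samples.

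Counts were modelled with edgeR 4.0.16 under R 4.3.3, using TMM factors, filterByExpr and the quasi-likelihood F test, 2-sided, with Benjamini-Hochberg adjustment over all genes tested, and only proteasome genes and their pathway are printed. Each comparison used its 2 groups, and the interaction all 4. SE is the log2 fold change divided by the root of F. Ratios used TMM-scaled CPM per kilobase of the deposited gene length, where the scaling cancels within a library, with exact permutation tests in SciPy 1.17.1. The script was tested on simulated counts. DESeq2 1.42.0, limma-voom (limma 3.58.1), other scaling, no filter, a fit over all 4 groups and leaving out each library were tried, as were, chosen after seeing the data, leaving out the 4 neutrophil-rich monocyte libraries, that set as a covariate, and 3 sets of macrophage libraries (A, G, H and K; B, E and L; C, D, I and J, which separate on a principal component) as a covariate. The labels do not say that libraries came from separate mice or cultures, so p-values measure only the spread between these libraries, which may be technical.

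The genes, lists and motifs were chosen with earlier results of these data known. Named with values are Psmb5 to Psmb10 and Psme1 to Psme4, then per comparison the other called genes (above 12, the 4 highest and 4 lowest), or the 2 highest and 2 lowest where none was called, a gene failing the filter with its counts, and in each pathway list up to 3 called genes. Library totals ran from 37330389 to 50257111. A motif search and a marker gene are not reported here.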

Additional observations from a re-analysis of the deposited data

Results flagged for a closer look

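Of 60 groups of libraries examined for the named genes, ratios and sums, 4 held a library far from the others of its group, where chance alone flags about 1 in 20. In vehicle macrophages, Psme1 stood at 86.8 CPM in replicate A and at 60.4 to 65.4 in the other libraries. The 36 summed constitutive genes stood at 4412 CPM in the same replicate A, against 3707 to 3885. In vehicle monocytes, Psme2 stood at 663 CPM in replicate 6, a neutrophil-rich library, against 912 to 1046. In ox-LDL macrophages, Psme3 stood at 120 CPM in replicate I, against 136 to 140.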

How the results depend on the processing

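No paired analysis was possible because the replicate labels are not shared between the groups compared. Over 61 log2 fold changes and 1153 alternative values, 1082 kept their direction and their side of the threshold, 50 lost and 1 gained a call, and 20 changed sign. None of the 648 alternative values of macrophages against monocytes changed sign. All sign changes were of values near 0 under ox-LDL. Psmb8 in monocytes was 0.01, and -0.0011 with DESeq2 or relative log expression factors, -0.024 with voom, -0.016 with one fit over all 4 groups, -0.043 with total counts, and -0.11 to 0.13 with single libraries left out. Psme2 in monocytes was -0.0039 with total counts and -0.041 to 0.18 with single libraries left out, and Psmb7 there was -0.088 to 0.051. Psme4 in macrophages was -0.012 with total counts and -0.012 to 0.11 with single libraries left out. The ratio of Psmb10 to Psmb7 in monocytes differed by 0.0013 between group medians. The 1 called gene for ox-LDL in macrophages became 2 with DESeq2 (Psmb9 lower, Psmd1 higher), 0 with one fit over all 4 groups, 3 with the library sets as covariate (Psmb9 and Psmb10 lower, Psmd8 higher) and 0 to 1 with single libraries left out. There, scaling by total counts moved the calls of all genes from 142 higher and 200 lower to 92 and 334. The calls of all genes were 305 higher and 393 lower with DESeq2, and 6 and 74 with one fit over all 4 groups. With the library sets as covariate they were 278 and 490. The Psmb9 to Psmb6 difference in monocytes was -0.78 without the neutrophil-rich libraries, which leaves fewer libraries. The Psmb10 to Psmb7 difference in macrophages ran from -0.41 to -0.28 with single libraries left out. The cause of these changes was not tested. Psma8 and Psmb11 are limited by depth, and counts of genes that overlap others by the unknown strand setting.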
